A study of Arabidopsis thaliana with 16 samples.

Results

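Arabidopsis thaliana carries in its nucleus the genes for the light-harvesting antenna and for many small subunits of the photosystems, and 43 of these were followed here out of 33602 genes in the deposited count table. The members were listed by name: 6 antenna genes of photosystem I (LHCA1 to LHCA6), 9 genes of the major trimeric antenna of photosystem II (LHCB1.1 to LHCB1.5, LHCB2.1 to LHCB2.3 and LHCB3), 6 genes of its minor antenna (LHCB4.1 to LHCB4.3, LHCB5, LHCB6 and LHCB7), 12 genes of photosystem I subunits and 10 genes of photosystem II subunits. All 43 were found in the table and all 43 passed the filter on low counts. RNA-seq libraries came from seedlings of the Col-0 accession, raised for 6 days at 22 °C in continuous white light on 1/2 MS plates. One set of groups then had 3 h at 28 °C and the other stayed at 22 °C. Each temperature has the triple mutant mrg1 mrg2 pif4, the double mutant mrg1 mrg2, the single mutant pif4 and the wild type (WT), with 2 libraries in each of the 8 groups. The labels name no alleles for mrg1, mrg2 or pif4. They also leave unstated whether replicate libraries were grown apart, so p-values measure the spread between libraries, which may be technical.

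Light-harvesting proteins hold chlorophyll and carotenoids in the thylakoid membrane and pass light energy to the photosystem cores, whose reaction centre subunits are encoded in the plastid. Nuclear antenna genes are among the most highly expressed genes of green tissue, and their transcription follows light, the circadian clock and signals from the plastid. PIF4 is a bHLH transcription factor of the phytochrome pathway that acts in growth at warm temperature, and MRG1 and MRG2 are chromodomain proteins that bind methylated histone H3. The comparisons ask how the members' transcripts differ after 3 h of warmth, and whether the genotypes differ in level or in that response.

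Library totals ran from 7186066 to 11363353 counts, and a floor of 3 counts corresponds to 0.264 to 0.417 counts-per-million of the unscaled library total. The level used throughout is CPM, the counts-per-million of a library total scaled with TMM factors. MRG1 had 27 to 64 reads in the libraries of both genotypes with mrg1 mrg2, against 168 to 225 in those of pif4 and WT, and MRG2 had 2 to 8 against 63 to 99. PIF4 transcript was not called lower in pif4 than in WT at 22 °C (−0.18 ± 0.099 on the log2 scale, edgeR adjusted p = 0.302). Its mean at 22 °C was 38.3 CPM in mrg1 mrg2 pif4, against 39.7 in mrg1 mrg2 and 31.7 in WT. At 28 °C it was 83.5 CPM in mrg1 mrg2 pif4 and 78.2 in pif4, against 104.6 in mrg1 mrg2 and 90.4 in WT. The pif4 label of pif4 and of mrg1 mrg2 pif4 therefore could not be checked by transcript level. Replicate libraries varied beyond counting error in all 8 groups. In RNA from seedlings, fewer cells of a type and less RNA per cell cannot be told apart. Root and shoot epidermis markers moved between groups, and their values stand beside the comparisons.

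The LHCB1 copies are close relatives, and they are shown first because they carry the most reads and differ between the genotypes. The last 90 coding bases, stop codon included, are given 5′ to 3′ in the direction of the gene, from RefSeq for build TAIR10.1. Capitals mark the bases that differ from LHCB1.1 in this stretch.
LHCB1.1: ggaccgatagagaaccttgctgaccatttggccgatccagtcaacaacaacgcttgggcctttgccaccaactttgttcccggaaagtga
LHCB1.2: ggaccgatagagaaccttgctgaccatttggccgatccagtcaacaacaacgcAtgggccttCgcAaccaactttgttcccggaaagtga
LHCB1.3: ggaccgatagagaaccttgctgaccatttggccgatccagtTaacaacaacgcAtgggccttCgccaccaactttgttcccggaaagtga
LHCB1.4: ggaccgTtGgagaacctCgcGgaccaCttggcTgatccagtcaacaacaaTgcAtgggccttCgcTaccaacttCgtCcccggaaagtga
LHCB1.5: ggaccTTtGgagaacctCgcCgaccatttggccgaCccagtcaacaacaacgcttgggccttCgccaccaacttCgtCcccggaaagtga
LHCB1.2 and LHCB1.3 each differ from LHCB1.1 at 3 of these bases, LHCB1.4 at 12 and LHCB1.5 at 9. Over the whole coding sequence the 3 copies on chromosome 1 share 95.6% to 96.4% of bases and the 2 copies on chromosome 2 share 91.4%. Between the chromosomes identity is 86.7% to 90.4%. LHCB2.1 and LHCB2.2 share 96.6%, with a longest identical run of 152 bases, so reads could be split between such copies in ways the sources used here do not state. The copies therefore are also given as sums. In the TAIR10.1 annotation 17 of the 43 members are overlapped by another gene. LHCB1.5 has an antisense lncRNA over 1045 bases and LHCB2.3 an antisense protein-coding gene over 595 bases. PSAH1 has an antisense protein-coding gene over 788 bases, PSAG over 479 and PSAE1 over 436, and LHCB6 has an antisense lncRNA over 358. The strand setting of the counting is not given in the sources used here, so reads of such partners cannot be told apart. LHCB1.5 (AT2G34420, chromosome 2, 14522524 to 14523568, minus strand) and LHCB1.4 (AT2G34430, chromosome 2, 14524607 to 14525918, plus strand) are read away from each other with 1038 bases between them. LHCB1.1 and LHCB1.3 on chromosome 1 are arranged in the same way with 1915 bases between them.

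The 250 bases before the gene start are shown for 5 antenna genes that differ in behaviour: LHCA4 and LHCB2.3, both with a G-box, LHCB1.5 and LHCB1.4, which share an intergenic region, and LHCB4.3, which ran against its class. The positions on TAIR10.1 are chr3:17495034-17495283, minus strand for LHCA4, chr3:10255656-10255905, plus strand for LHCB2.3, chr2:14523569-14523818, minus strand for LHCB1.5, chr2:14524357-14524606, plus strand for LHCB1.4 and chr2:16745378-16745627, plus strand for LHCB4.3. Capitals mark the G-box CACGTG and the element CCAATC, on either strand.
LHCA4: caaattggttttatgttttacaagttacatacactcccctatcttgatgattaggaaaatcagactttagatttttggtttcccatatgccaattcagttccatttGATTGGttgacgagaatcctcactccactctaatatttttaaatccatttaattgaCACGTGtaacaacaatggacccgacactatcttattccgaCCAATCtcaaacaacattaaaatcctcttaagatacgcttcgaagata
LHCB2.3: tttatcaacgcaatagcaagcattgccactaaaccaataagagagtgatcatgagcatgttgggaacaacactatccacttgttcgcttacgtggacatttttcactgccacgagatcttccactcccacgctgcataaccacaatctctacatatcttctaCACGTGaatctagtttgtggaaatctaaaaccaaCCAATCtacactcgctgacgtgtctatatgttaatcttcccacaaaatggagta
LHCB1.5: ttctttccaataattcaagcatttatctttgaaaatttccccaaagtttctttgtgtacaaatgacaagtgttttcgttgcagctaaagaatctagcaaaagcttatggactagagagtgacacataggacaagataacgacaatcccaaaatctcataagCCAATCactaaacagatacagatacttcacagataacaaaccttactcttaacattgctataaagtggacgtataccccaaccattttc
LHCB1.4: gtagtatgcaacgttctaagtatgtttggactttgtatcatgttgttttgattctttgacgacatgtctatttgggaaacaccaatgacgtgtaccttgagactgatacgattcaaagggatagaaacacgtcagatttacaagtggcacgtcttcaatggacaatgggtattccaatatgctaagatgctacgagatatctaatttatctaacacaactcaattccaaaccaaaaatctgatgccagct
LHCB4.3: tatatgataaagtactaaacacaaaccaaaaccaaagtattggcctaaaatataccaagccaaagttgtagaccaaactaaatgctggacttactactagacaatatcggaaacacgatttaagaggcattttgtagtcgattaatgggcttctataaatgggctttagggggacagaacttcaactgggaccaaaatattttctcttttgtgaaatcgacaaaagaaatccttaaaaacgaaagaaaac
LHCA4 and LHCB2.3 each hold a G-box at −88 and a CCAATC between it and the gene start, and LHCA4 holds another CCAATC on the other strand. LHCB1.5 holds CCAATC, while LHCB1.4 and LHCB4.3 hold neither motif in this window. Among 250-base windows before the 43 members, 20.9% hold the G-box CACGTG, against 6.49% of 27443 windows before protein-coding genes. CCAATC is in 25.6% of the members' windows against 10.2% of all, and the I-box core GATAAG in 20.9% against 12.3%. CACATG, an E-box that PIF proteins bind, is in 9.3% against 11.1%, the evening element AAAATATCT in 2.33% against 2.36%, and the heat shock core GAANNTTC in 2.33% against 9.55%. Motifs were searched on both strands, and no motif contains another. CCAATC is before 5 of the 9 major antenna genes of photosystem II and before 3 of the 6 antenna genes of photosystem I, against 0 of the 12 photosystem I subunit genes. These shares describe the sequences and were not tested against expression.

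Per length of transcript (RPKM, the TMM-scaled CPM divided by kilobases of exon, mean over all 16 libraries) the members' levels span a wide range. LHCB1.3 was highest at 13131 RPKM and LHCB1.5 next at 8584. PSBR, which helps to hold the oxygen-evolving proteins on photosystem II, had 4311 RPKM, and LHCA1 and LHCA4, a pair of antenna proteins at the edge of photosystem I, had 3524 and 3303. Most members lay between 486 (PSAH1) and 3887 RPKM (LHCB1.2). Only 4 members were lower, namely LHCA5 at 114, LHCA6 at 87.5, LHCB4.3 at 20.0 and LHCB7 at 11.9 RPKM. LHCA5 and LHCA6 link photosystem I to the NDH complex, LHCB4.3 is the rarest form of the antenna protein CP29 here, and LHCB7 is a rarely expressed relative. LHCB1.3 alone gave 14.8% of the members' summed CPM, so sums over members weigh that gene most.

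The members' transcripts together took a larger share of the library at 28 °C than at 22 °C in WT, and at 22 °C a larger share in each mutant than in WT. At 28 °C the summed level of the 43 members was 106618 and 106730.4 CPM in the 2 mrg1 mrg2 pif4 libraries, 105100.5 and 116833 in mrg1 mrg2, 142078 and 146828 in pif4 and 116664 and 116672 in WT. At 22 °C it was 104733 and 101707 in mrg1 mrg2 pif4, 92718 and 90999 in mrg1 mrg2, 120975 and 116255 in pif4 and 80358 and 77635 CPM in WT. WT at 22 °C was the lowest group and pif4 at 28 °C the highest, with no overlap with any other group. In the triple mutant the 28 °C libraries stood only slightly above the 22 °C libraries, and in mrg1 mrg2 at 28 °C the 2 libraries were further apart than in any other group. In each antenna and subunit class, too, WT at 22 °C was lowest and pif4 at 28 °C highest, as the plot of class sums shows.

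**Figure D1:**
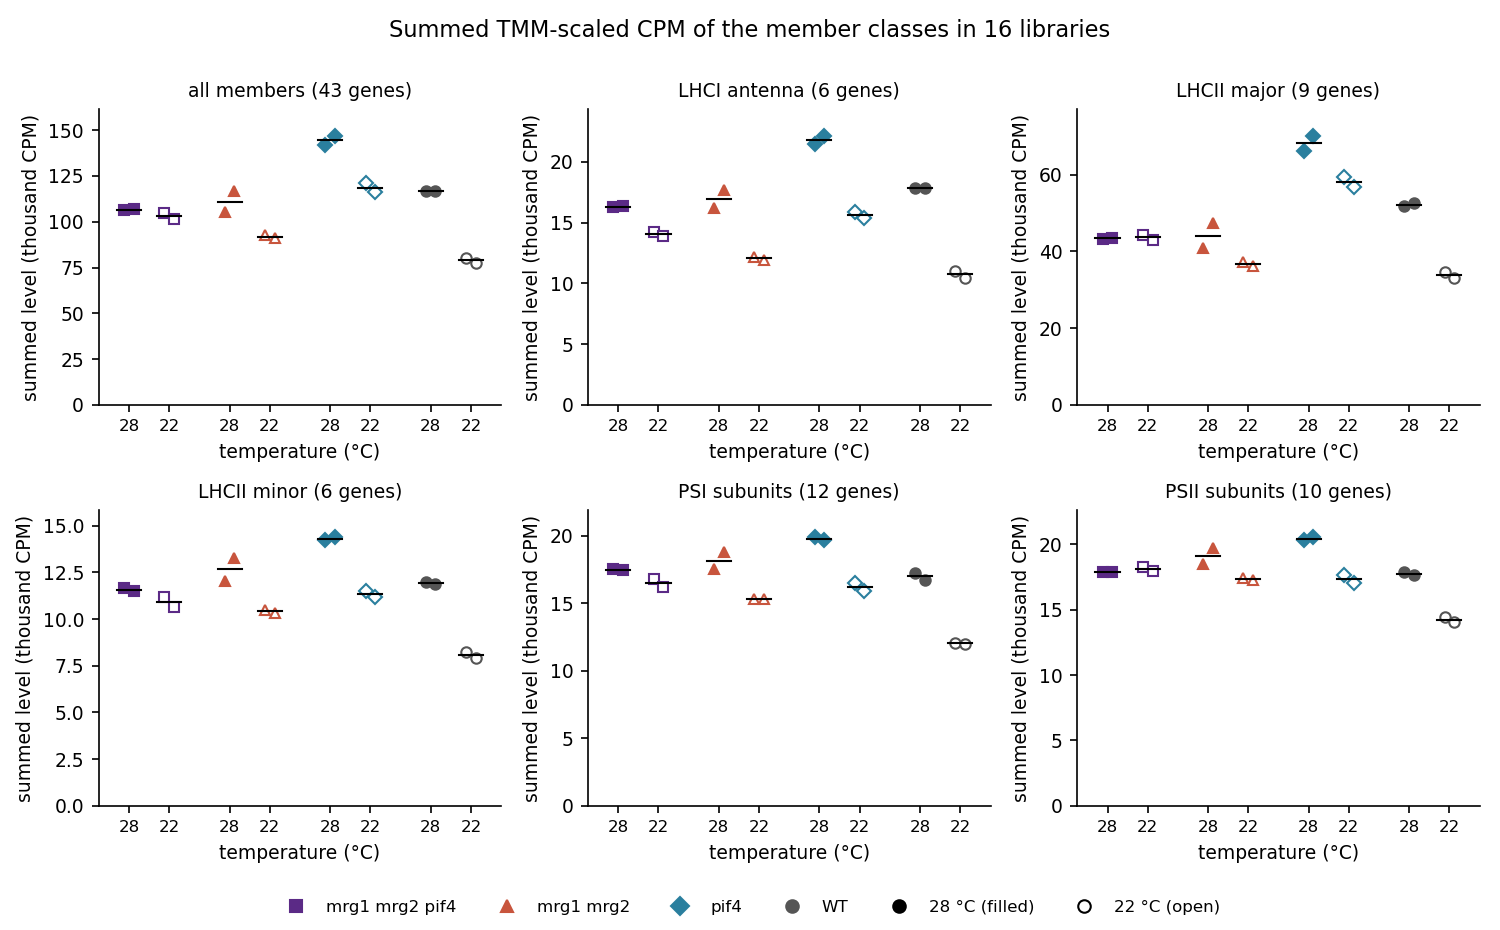
Summed level of the members of each class (y axis, TMM-scaled CPM, from 0) in the 8 groups; each point is 1 library and the line is the mean of the 2, with filled points for 28 °C and open points for 22 °C. The WT libraries at 22 °C are lowest in every panel, and the pif4 libraries at 28 °C are highest.

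Warmth alone was followed first in WT, by setting the 2 WT libraries at 28 °C against the 2 at 22 °C. A gene is said to have risen or fallen, or to be higher or lower, where its Benjamini-Hochberg adjusted p in edgeR's quasi-likelihood test over all 20075 genes tested was under 0.05, and a ± after a log2 value is its approximate standard error. Of the 43 members 37 rose and 3 fell, where 13.3% of all genes tested rose and 13.7% fell. Among the 1582 genes with a mean of at least 100 CPM, which is closer to the members' range, 30% rose and 28% fell. Shares at that level are also given for the comparisons with WT at 22 °C. For all other comparisons only shares over all genes are given, and those at the members' level may be larger. The members' median log2 change was 0.46, against 0.011 over all genes tested. The changes were mostly moderate: 11 members rose by more than 1.5-fold, where 4.43% of all genes did, and 1 fell by as much, where 6.23% of all genes did. Root markers moved with this comparison, with a summed level of 244 and 233 CPM in WT at 28 °C against 373 and 382 CPM at 22 °C, and so did shoot epidermis markers, with 1782 and 1725 CPM at 28 °C against 1428 and 1469.6 CPM at 22 °C. The part of either in the result was not tested.

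All 9 genes of the major photosystem II antenna rose in WT, with a median of 0.85. LHCB1.5, a subunit of the LHCII trimer, had 11970.4 and 12194 CPM at 28 °C, against 5787 and 5751 at 22 °C. Both warm libraries lay far above both others, and the change of 1.07 ± 0.045 (log2; adjusted p = 6.05e-21) was the largest of any member. LHCB2.2 (AT2G05070), of the LHCB2 proteins that are phosphorylated in state transitions, had 1843 and 1852 CPM at 28 °C against 1045 and 1002 at 22 °C, a rise of 0.85 ± 0.043 (1.52e-18). LHCB1.4, LHCB1.2 and LHCB3, the other trimer protein, rose by 0.92, 0.86 and 0.86. The smallest rise was that of LHCB1.3, the copy with the most reads, which had 15870.4 and 16253 CPM at 28 °C against 14024 and 13398 at 22 °C (0.23 ± 0.043).

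In the minor antenna, the single proteins CP29, CP26 and CP24 that join the trimers to the core, 4 of 6 genes rose and 1 fell in WT. LHCB4.2 (AT3G08940), a gene for CP29, had 2197 and 2189 CPM at 28 °C against 1142 and 1105 at 22 °C, a rise of 0.96 ± 0.045 (adjusted p = 1.29e-19). LHCB6 (AT1G15820), for CP24, had 2828 and 2809 CPM at 28 °C against 1895 and 1885 at 22 °C and rose by 0.58 ± 0.044 (1.91e-13). LHCB4.1 and LHCB5, for CP29 and CP26, rose by 0.46 and 0.45. The groups did not overlap for any of these 4 genes.

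Among the antenna genes of photosystem I, the 4 that make up its outer belt rose and the 2 that link it to the NDH complex fell. LHCA1 (AT3G54890) had 5225 and 5206 CPM at 28 °C against 2955 and 2781 at 22 °C, a rise of 0.86 ± 0.047 (adjusted p = 1.21e-17). LHCA4 (AT3G47470), its partner, had 5139 and 5186 CPM at 28 °C against 3005 and 2928 at 22 °C and rose by 0.80 ± 0.040 (8.86e-19). LHCA3 and LHCA2, the other pair of the belt, rose by 0.77 and 0.51. The fall of LHCA6 was lost in several alternatives, with an adjusted p of up to 0.223.

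All 12 photosystem I subunit genes rose, with a median of 0.52, and 8 of 10 photosystem II subunit genes rose, with a median of 0.35. PSAD2 (AT1G03130), for a stromal subunit where ferredoxin docks, had 969 and 967 CPM at 28 °C against 507 and 534 at 22 °C, a rise of 0.90 ± 0.044 (6.37e-19). PSAF (AT1G31330), on the side where plastocyanin docks, had 2951 and 2875 CPM at 28 °C against 1869 and 1895 at 22 °C and rose by 0.63 ± 0.038 (3.97e-16). These were the largest changes of the subunit genes of photosystem I, and the smallest was PSAN at 0.24, a call lost without WT replicate 2 at 22 °C (adjusted p = 0.0624). PSBQ2 (AT4G05180), a peripheral protein of the oxygen-evolving complex, had 1159 and 1103 CPM at 28 °C against 781 and 760.0 at 22 °C and rose by 0.55 ± 0.043 (4.55e-13). PSBP1 (AT1G06680), another such protein, had 2913 and 2821 CPM at 28 °C against 2201 and 2225 at 22 °C and rose by 0.37 ± 0.037 (2.66e-10). PSBO1 (AT5G66570), the main manganese-stabilising protein, rose by 0.35, while its copy PSBO2 was not called (0.12 ± 0.053, adjusted p = 0.0962). PSBS, which senses lumen pH in non-photochemical quenching, was not called either (0.076 ± 0.043, 0.202).

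**Figure D2:**
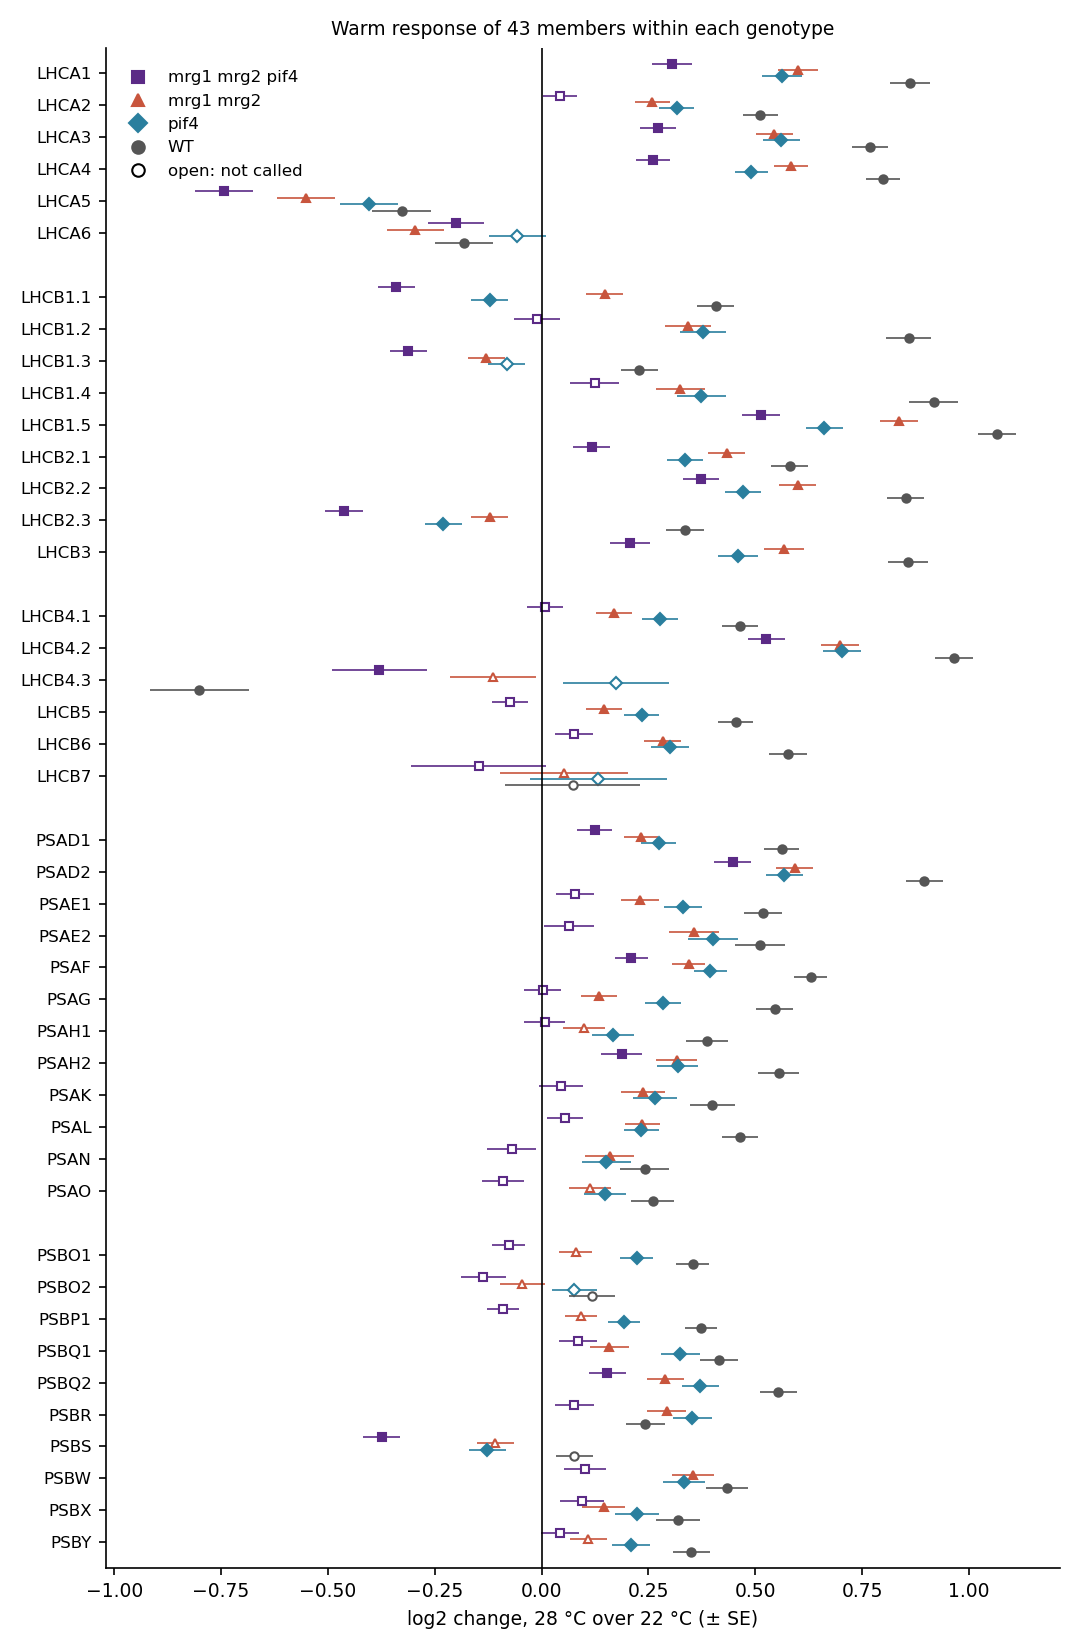
Warm response of each member (x axis, log2 of 28 °C over 22 °C, with bars of ± 1 standard error) in the 4 genotypes, members grouped by class; filled points passed the adjusted p threshold and open points did not. Most members lie to the right of 0 in WT, nearer to 0 in mrg1 mrg2 and pif4, and around 0 in mrg1 mrg2 pif4, and LHCA5 lies to the left in all 4.

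The same warm comparison was made within each mutant. In mrg1 mrg2 pif4 13 members rose and 7 fell, with a median of 0.055, against 0.0067 over all genes tested, of which 12.9% rose and 14.3% fell. In mrg1 mrg2 30 rose and 4 fell, with a median of 0.23 against −0.00070, where 12.8% of all genes rose and 14.1% fell. In pif4 34 rose and 4 fell, with a median of 0.28 against 0.015, where 13.2% of all genes rose and 12.4% fell. The count of members that fell rests on few genes and changed with single libraries: it was 2 in mrg1 mrg2 without replicate 1 of that genotype at 22 °C or without replicate 1 at 28 °C. In pif4 it was 2 without either replicate at 22 °C or without replicate 1 at 28 °C. Members that rose in the triple mutant include LHCB4.2 (0.53 ± 0.044), LHCB1.5 (0.51 ± 0.044), PSAD2 (0.45 ± 0.043), LHCB2.2 (0.37 ± 0.043) and LHCA1 (0.30 ± 0.046). Only 1 of 10 photosystem II subunit genes rose there, PSBQ2 at 0.15 ± 0.043, and that call was lost without replicate 2 of mrg1 mrg2 pif4 at 22 °C or its replicate 1 at 28 °C (adjusted p = 0.119 to 0.189).

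Several major antenna genes fell with warmth in mutants although they rose in WT. LHCB2.3 (AT3G27690), the LHCB2 copy with the fewest reads, had 868 and 882 CPM at 28 °C against 1215 and 1195 at 22 °C in mrg1 mrg2 pif4 and fell by 0.46 ± 0.044 (adjusted p = 9.2e-11). In mrg1 mrg2 it had 1124 and 1139 CPM at 28 °C against 1256 and 1206 at 22 °C, and in pif4 964 and 1011 CPM at 28 °C against 1182 and 1134 at 22 °C. In WT it had 769 and 773 CPM at 28 °C against 628 and 594 at 22 °C. LHCB2.3 also fell in mrg1 mrg2 (−0.12) and in pif4 (−0.23), while it rose in WT (0.34). LHCB1.1 (AT1G29920) had 3709 and 3757 CPM at 28 °C against 4822 and 4626 at 22 °C in the triple mutant, 3667 and 4119 against 3569 and 3456 in mrg1 mrg2, 5063 and 5354 against 5762 and 5569 in pif4 and 4247 and 4324 against 3321 and 3142 in WT. It fell in the triple mutant (−0.34) and in pif4 (−0.12) and rose in mrg1 mrg2 (0.15) and in WT (0.41). LHCB1.3 fell in mrg1 mrg2 pif4 (−0.31 ± 0.043) and in mrg1 mrg2 (−0.13 ± 0.043) and was not called in pif4 (−0.081 ± 0.043, 0.177). The small changes in mrg1 mrg2 and pif4 lost their calls in some alternatives. Of 24 alternatives, the call in mrg1 mrg2 was lost in 6 for LHCB2.3 (adjusted p from 0.0504 to 0.268), in 5 for LHCB1.3 (0.111 to 0.679) and in 2 for LHCB1.1 (0.113 to 0.312). The call of LHCB1.1 in pif4 was lost in 3 (0.057 to 0.307).

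At 22 °C most members were higher in every mutant than in WT. In mrg1 mrg2 pif4 against WT 39 of 43 were higher, where 7.87% of all genes tested were higher and 7.54% lower, and the members' median was 0.43 against 0.0021 over all genes. None was lower in the edgeR test, 0 at an unadjusted p under 0.05 and 0 in DESeq2. In mrg1 mrg2 37 were higher and 2 lower, LHCB1.4 and LHCB1.5 (median 0.36 against 0.0039), where 12.3% of all genes were higher and 12.2% lower. In pif4 38 were higher and 1 lower (median 0.44 against −0.0042), where 5.8% of all genes were higher and 5.05% lower. Among the genes with a mean of at least 100 CPM the shares higher were 23.9% in mrg1 mrg2 pif4, 35.1% in mrg1 mrg2 and 26.5% in pif4. In all 3 mutants 34 members were higher, and these comparisons share the 2 WT libraries at 22 °C, which also enter the WT warm response. Those 2 libraries also held the highest summed root markers of the series, 373 and 382 CPM, against 307 and 297 in mrg1 mrg2 pif4, 251 and 251 in mrg1 mrg2 and 315 and 297 in pif4 at 22 °C. Of the 22 root markers tested, 8 were lower and 1 higher in mrg1 mrg2 pif4 than in WT at 22 °C. In mrg1 mrg2 11 were lower and 2 higher, and in pif4 6 were lower and 1 higher. The part of root in the members' difference was not tested. Shoot epidermis markers at 22 °C summed to 1445 and 1443 CPM in mrg1 mrg2 pif4 and to 1484 and 1486 in mrg1 mrg2. In pif4 they summed to 1547 and 1553 CPM and in WT to 1428 and 1469.6. Of the 11 epidermis markers tested, 5 were higher and 2 lower than WT in mrg1 mrg2 pif4. In mrg1 mrg2 3 were higher and 2 lower, and in pif4 4 were higher and 0 lower. Their part was not tested either.

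Among the members, the largest difference of mrg1 mrg2 from WT at 22 °C was that of LHCB2.3, with 1256 and 1206 CPM against 628 and 594 in WT (1.01 ± 0.044, adjusted p = 1.1e-19), and it was nearly as large in mrg1 mrg2 pif4 (0.98 ± 0.044) and in pif4 (0.92 ± 0.044). LHCB2.3 was the furthest above WT of all members in mrg1 mrg2 pif4 too. In pif4 the largest was LHCB1.4, with 6839 and 6351 CPM against 3163 and 2988 in WT (2.14-fold, 2.94e-17). LHCB1.4 was lower in mrg1 mrg2 than in WT, at 2761 and 2732 CPM (−0.16 ± 0.057, 0.0327), and slightly higher in mrg1 mrg2 pif4 at 3514 and 3387 CPM (0.17 ± 0.057, 0.0418). The call in mrg1 mrg2 was lost in DESeq2 and without WT replicate 1 or either mrg1 mrg2 replicate at 22 °C (adjusted p from 0.109 to 0.279), and that in mrg1 mrg2 pif4 in 9 of 24 alternatives (0.0513 to 0.394). The median of the major photosystem II antenna genes was 0.55 in mrg1 mrg2 pif4, 0.37 in mrg1 mrg2 and 0.77 in pif4. For the photosystem I subunit genes, all 12 of which were higher in each mutant, the median was 0.45 in mrg1 mrg2 pif4, 0.36 in mrg1 mrg2 and 0.43 in pif4.

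Antenna genes of photosystem I differed between mutants at 22 °C. LHCA4 had 3724 and 3581 CPM in mrg1 mrg2 pif4, 2976 and 2954 in mrg1 mrg2, 4441 and 4413 in pif4 and 3005 and 2928 in WT. It was higher than WT in the triple mutant (0.30 ± 0.039) and in pif4 (0.58 ± 0.039, adjusted p = 5.06e-14), while mrg1 mrg2 overlapped WT (−0.00090 ± 0.039, 0.991). LHCA1 had 3902 and 3816 CPM in mrg1 mrg2 pif4, 3318 and 3206 in mrg1 mrg2, 4434 and 4426 in pif4 and 2955 and 2781 in WT, and was higher than WT in mrg1 mrg2 pif4 (0.43), mrg1 mrg2 (0.19) and pif4 (0.63). The call of LHCA1 in mrg1 mrg2 was lost in 4 of 24 alternatives (adjusted p from 0.055 to 0.0935). pif4 held the highest level of both genes and did not overlap with the other genotypes.

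Minor antenna and subunit genes followed. LHCB4.2 had 1688 and 1624 CPM in mrg1 mrg2 pif4, 1549 and 1547 in mrg1 mrg2 and 1623 and 1613 in pif4, against 1142 and 1105 in WT (0.56 ± 0.044 in the triple mutant, 2.56e-12). LHCB6 had 2604 and 2478 CPM in mrg1 mrg2 pif4, 2527 and 2519 in mrg1 mrg2 and 2725 and 2683 in pif4, against 1895 and 1885 in WT (0.52 ± 0.044 in pif4, 1.87e-11). In both genes the WT libraries were the lowest and the mutants lay close together. PSAG (AT1G55670), where a peripheral part of photosystem I meets the antenna, had 1766 and 1701 CPM in mrg1 mrg2 pif4, 1479.9 and 1522 in mrg1 mrg2 and 1792 and 1687 in pif4, against 1222 and 1208 in WT (0.52 ± 0.043 in pif4, 8.17e-12). PSAF had 2775 and 2724 CPM in mrg1 mrg2 pif4 against 1869 and 1895 in WT (0.55 ± 0.038, 1.19e-13). Genes of the oxygen-evolving proteins were higher as well, and PSBQ2 had 1159 and 1099 CPM in mrg1 mrg2 pif4 against 781 and 760.0 in WT (0.55 ± 0.043, 2.16e-12). PSBO1 had 3730.0 and 3747 CPM in mrg1 mrg2 pif4 against 2696 and 2641 in WT (0.49 ± 0.038, 2.37e-12). PSBR and LHCB7 were not called in any mutant at 22 °C.

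**Figure D3:**
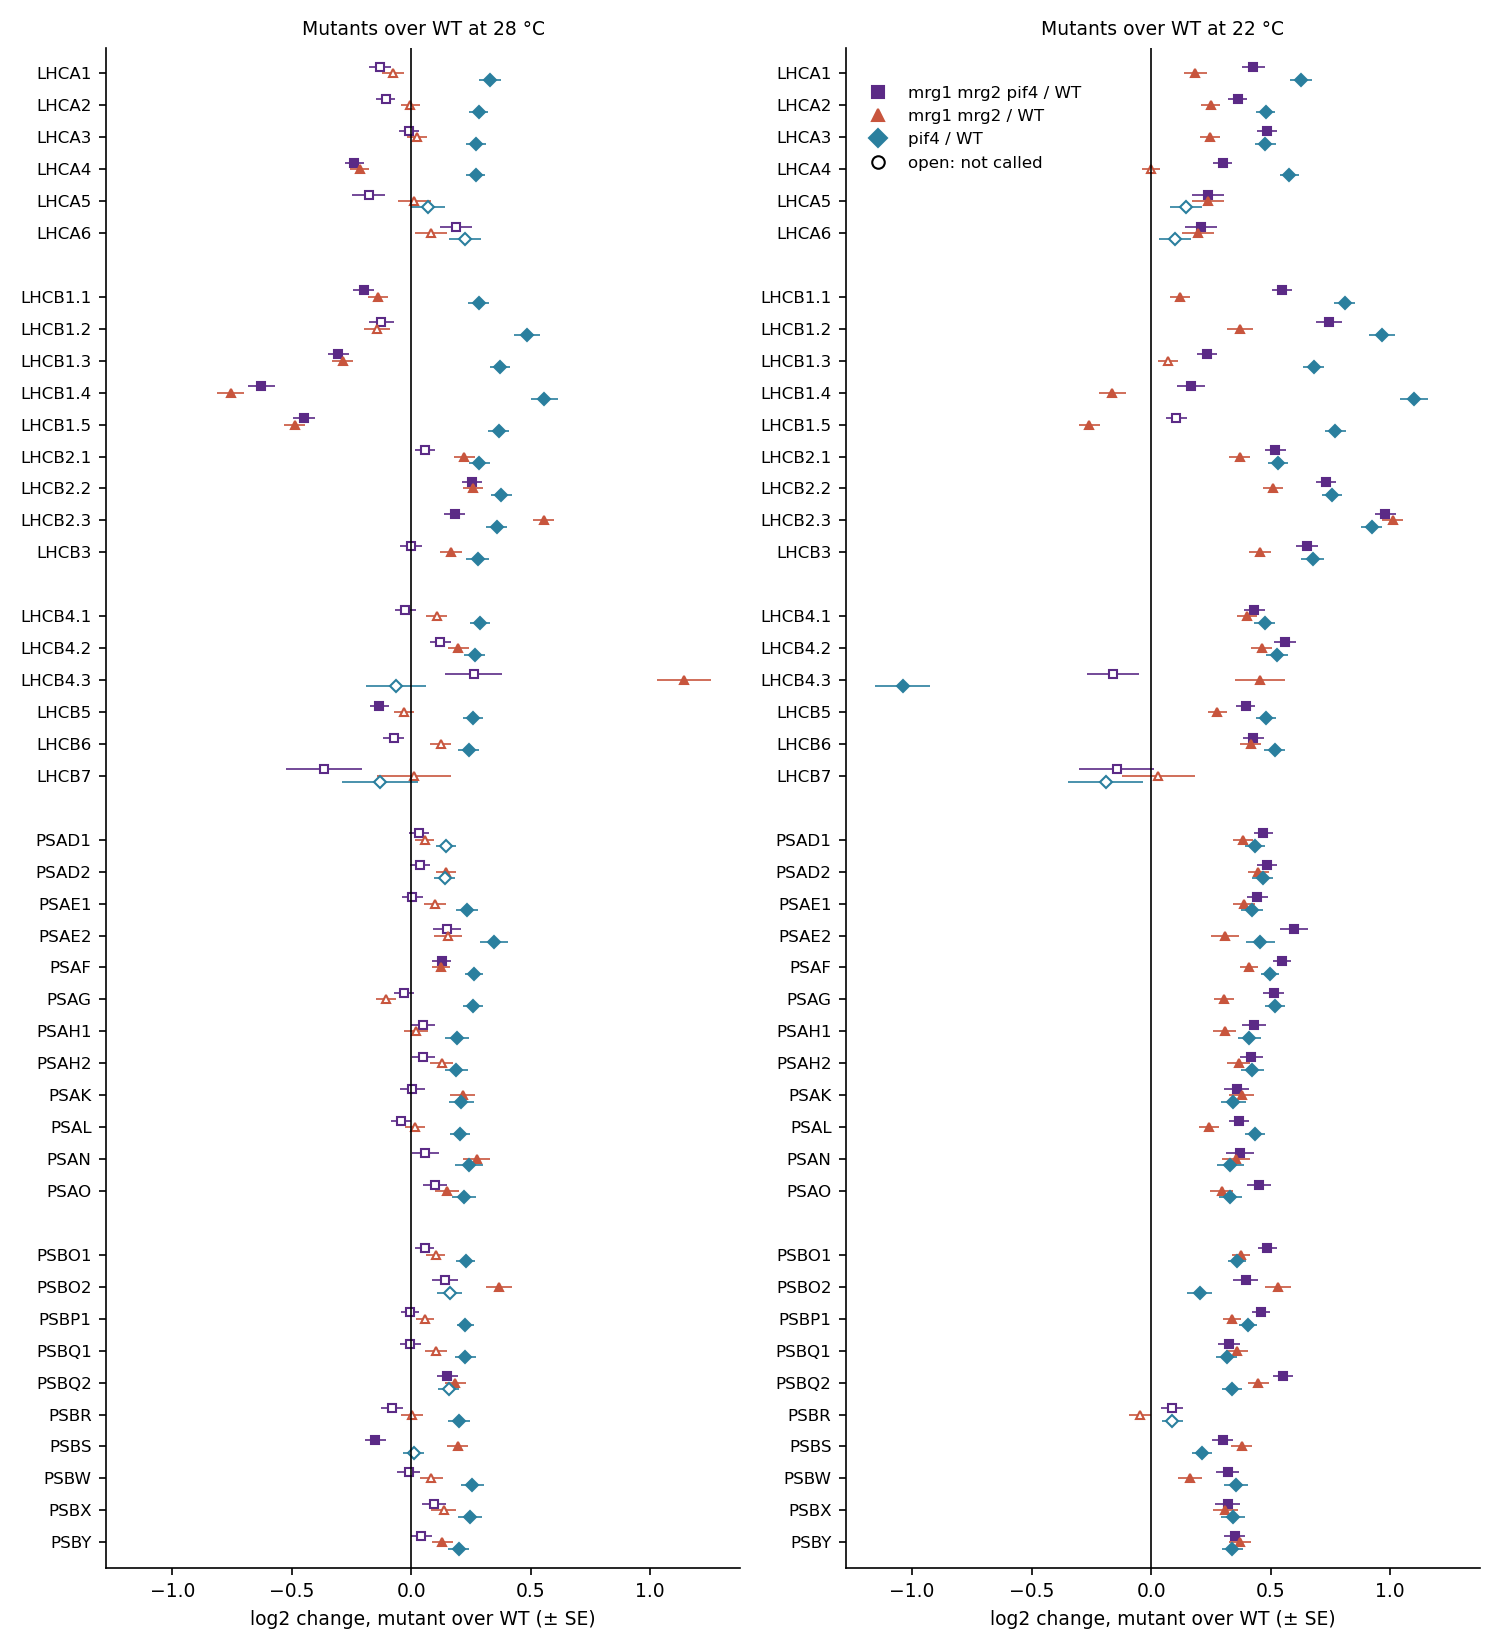
Difference of each member between a mutant and WT (x axis, log2 of mutant over WT, with bars of ± 1 standard error) at 28 °C and at 22 °C for mrg1 mrg2 pif4, mrg1 mrg2 and pif4; filled points passed the adjusted p threshold and open points did not. At 22 °C most points lie to the right of 0 in all 3 mutants, and at 28 °C they do so in pif4, while in mrg1 mrg2 pif4 they lie around 0.

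At 28 °C the mutants were again set against WT. In mrg1 mrg2 pif4 against WT 4 members were higher (LHCB2.2, LHCB2.3, PSAF and PSBQ2) and 7 lower (LHCA4, LHCB1.1, LHCB1.3, LHCB1.4, LHCB1.5, LHCB5 and PSBS), where 5.3% of all genes were higher and 6.55% lower, with a median of −0.00040 against 0.0059. In mrg1 mrg2 15 were higher and 5 lower, where 6.69% of all genes were higher and 7.4% lower, with a median of 0.10 against 0.0046. In pif4 34 were higher, where 1.17% of all genes were higher and 0.423% lower, with a median of 0.24 against 0.0084. None was lower in pif4 in the edgeR test, 0 at an unadjusted p under 0.05 and 0 in DESeq2. These counts depend on the scaling: with library totals in place of TMM the higher members numbered 12 in pif4 and 8 in mrg1 mrg2 pif4, and the lower members 3 in mrg1 mrg2 pif4. None of the members called in these 3 comparisons changed its sign under that scaling. The counts for the triple mutant were also moved by single libraries, with 2 higher members without any of the WT libraries at 28 °C or its own, and 7 without replicate 2 of mrg1 mrg2 at 28 °C. In mrg1 mrg2 the higher members numbered 7 without WT replicate 2 at 28 °C and 8 without its own replicate 2 at 28 °C. Of the 11 members called in the triple mutant, LHCB2.2, LHCB1.3, LHCB1.4 and LHCB1.5 kept their calls in all 24 alternatives. LHCB5 lost its call in 5, PSAF and PSBS in 4 each, PSBQ2 and LHCB2.3 in 2 each and LHCA4 and LHCB1.1 in 1 each. The shares given for 28 °C are over all genes, and among genes with a mean of at least 100 CPM they may be larger. The 4 higher and 7 lower members of the triple mutant are therefore not read as an excess.

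Markers of other tissues differed between the genotypes at 28 °C as well. Shoot epidermis markers summed to 1457 and 1462 CPM in mrg1 mrg2 pif4, 1550.2 and 1549 in mrg1 mrg2, 1750.3 and 1787 in pif4 and 1782 and 1725 in WT, and of the 11 tested 3 were lower than WT in mrg1 mrg2 pif4 and 2 in mrg1 mrg2. Root markers summed to 261 and 275 CPM in mrg1 mrg2 pif4, 202 and 198 in mrg1 mrg2, 275 and 285 in pif4 and 244 and 233 in WT. Of the 22 root markers tested, 3 were higher than WT in mrg1 mrg2 pif4, 1 was higher and 5 lower in mrg1 mrg2, and 1 was higher in pif4. Over all genes 5.3% were higher and 6.55% lower in mrg1 mrg2 pif4. The shares were 6.69% and 7.4% in mrg1 mrg2 and 1.17% and 0.423% in pif4. The part of these tissues in the members' differences at 28 °C was not tested.

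The chromosome 2 pair of LHCB1 copies differed between the genotypes at 28 °C. LHCB1.4 had 3699.5 and 3823 CPM in mrg1 mrg2 pif4, 3023 and 3857 in mrg1 mrg2, 8308 and 8788 in pif4 and 5774 and 5843 in WT. Its level was lower than WT in the triple mutant (−0.63 ± 0.057, adjusted p = 1.72e-10) and in mrg1 mrg2 (−0.76 ± 0.057, 1.34e-12), and higher in pif4 (0.56 ± 0.057, 1.94e-08), with no overlap between WT and any of the 3. LHCB1.5 had 8868 and 8838 CPM in mrg1 mrg2 pif4, 8017 and 9215 in mrg1 mrg2, 15073 and 16064 in pif4 and 11970.4 and 12194 in WT. Against WT it differed by −0.45 ± 0.044 in mrg1 mrg2 pif4, −0.49 ± 0.044 in mrg1 mrg2 and 0.37 ± 0.044 in pif4. Both genotypes with mrg1 mrg2 were below WT for this pair and pif4 above it. Of the other LHCB1 copies, LHCB1.1 and LHCB1.3 were also lower than WT in both these genotypes and higher in pif4. LHCB1.2 was higher in pif4 and not called in the genotypes with mrg1 mrg2. The LHCB2 copies were higher than WT in mrg1 mrg2, where LHCB2.3 had 1124 and 1139 CPM against 769 and 773 in WT (0.55 ± 0.044, 5.37e-12), LHCB2.2 was higher by 0.26 and LHCB2.1 by 0.22. All 3 LHCB2 copies were higher than WT in pif4 as well, and LHCB2.2 and LHCB2.3 in mrg1 mrg2 pif4.

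Whether the warm response itself differed from that of WT was tested as an interaction, the log2 change of the mutant minus that of WT. In mrg1 mrg2 pif4 the response of 38 of 43 members was lower than in WT, where 2.37% of all genes had a higher and 3.47% a lower response, and the median difference was −0.44 against −0.00080 over all genes. No member had a higher one in the edgeR test, while 1 did at an unadjusted p under 0.05 and 0 did in DESeq2. In mrg1 mrg2 29 were lower and 1 was higher (median −0.25 against −0.0060), where 2.44% of all genes were lower and 2.37% higher. In pif4 23 were lower and 1 was higher (median −0.21 against 0.0076), where 1.76% of all genes were lower and 2.34% higher. The 1 higher member in both was LHCB4.3, and its call in mrg1 mrg2 was lost without WT replicate 2 at 22 °C (adjusted p = 0.0829). All 3 interactions share the 4 WT libraries, and a member higher than WT at 22 °C and level with it at 28 °C enters them as a lower response. With library totals in place of TMM the lower members numbered 28 in mrg1 mrg2 pif4, 5 in mrg1 mrg2 and 11 in pif4. The count in mrg1 mrg2 was 14 without WT replicate 2 at 22 °C and 19 without replicate 1 of mrg1 mrg2 at 22 °C, WT at 28 °C or mrg1 mrg2 at 28 °C, and that in pif4 was 14 without its replicate 1 at 22 °C. Marker lists moved with the interactions too. Of the 11 epidermis markers 4 had a lower response in mrg1 mrg2 pif4 than in WT (median −0.51) and 5 of the 22 root markers had a higher one (median 0.59). In mrg1 mrg2 2 epidermis markers were lower and 3 root markers higher, and in pif4 1 was lower and 6 were higher. Their part in the result was not tested.

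All 9 major antenna genes and all 12 photosystem I subunit genes had a lower warm response in mrg1 mrg2 pif4 than in WT. LHCB2.3 differed by −0.80 ± 0.062 (adjusted p = 3.64e-11) and LHCB1.1 by −0.75 ± 0.061 (8.2e-11). LHCB1.2, with 4642 and 4674 CPM at 28 °C against 4830.5 and 4553 at 22 °C in the triple mutant and 5019 and 5138 against 2857 and 2744 in WT, had the lowest value of any member (−0.87). Its libraries at the 2 temperatures overlap in the triple mutant and are far apart in WT. LHCB5 (AT4G10340), with 3705 and 3603 CPM at 28 °C against 3954 and 3738 at 22 °C in the triple mutant and 4019 and 3995 against 3032 and 2819 in WT, differed by −0.53 ± 0.059 (5.45e-08). LHCB6 differed by −0.50 ± 0.062 (4.4e-07), LHCA1 by −0.56 ± 0.066 (1.83e-07) and LHCA4 by −0.54 ± 0.056 (9.32e-09). For each of these antenna genes the response was higher in WT. Of the subunit genes, PSAG differed by −0.54 ± 0.060 (4.67e-08), PSAF by −0.42 ± 0.054 (1.07e-06), PSBP1 by −0.46 ± 0.053 (8.57e-08) and PSBO1 by −0.43 ± 0.054 (6.06e-07). The members without a call in the triple mutant were LHCA6, LHCB4.3, LHCB7, PSBR and PSBX.

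The triple mutant was then set against each genotype that carries part of its mutations. Against mrg1 mrg2 at 28 °C 10 members were lower (median −0.076 against 0.0018), where 5.28% of all genes were lower and 4.67% higher. No member was higher in the edgeR test, while 1 was at an unadjusted p under 0.05 and 0 were in DESeq2. Against pif4 at 28 °C 31 were lower (median −0.23 against −0.0020), where 6.03% of all genes were lower and 3.39% higher, and again no member was higher in edgeR, 1 at an unadjusted p under 0.05 and 0 in DESeq2. With library totals the lower members numbered 3 against mrg1 mrg2 and 11 against pif4, and 1 member was then higher than in pif4. That scaling put the median of all genes at 0.13 against pif4, and 1 of the 31 called members changed its sign. Without replicate 1 of mrg1 mrg2 at 28 °C the lower members against mrg1 mrg2 numbered 19, without its replicate 2 there were 3 lower and 3 higher, and without replicate 2 of mrg1 mrg2 pif4 there were 6 lower. LHCB1.4 had the largest difference from pif4 at 28 °C (−1.18 ± 0.058, adjusted p = 1.53e-17), followed by LHCB1.5 (−0.81 ± 0.044) and LHCB1.3 (−0.68 ± 0.043). Against pif4 at 28 °C 5 of 11 epidermis markers were lower too (median −0.25), with 1457 and 1462 CPM in mrg1 mrg2 pif4 against 1750.3 and 1787 in pif4. Against mrg1 mrg2 at 28 °C 8 of 22 root markers were higher and 1 lower (median 0.43), with 261 and 275 CPM in mrg1 mrg2 pif4 against 202 and 198 in mrg1 mrg2. The part of either list in these counts was not tested.

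At 22 °C 18 members were higher and 1 lower in mrg1 mrg2 pif4 than in mrg1 mrg2 (median 0.11 against −0.0054), where 4.88% of all genes were higher and 4.94% lower. Those 18 include all 5 LHCB1 copies, and the largest difference was LHCB1.1 (0.43 ± 0.043). Without replicate 2 of mrg1 mrg2 at 22 °C or replicate 1 of mrg1 mrg2 pif4 at 22 °C the higher members numbered 10. Against pif4 at 22 °C 4 were higher and 7 lower (median 0.0089 against 0.0015), where 3.27% of all genes were higher and 3.12% lower. The lower ones were LHCA1, LHCA4 and the 5 LHCB1 copies, and the higher ones were LHCB4.3, PSBO1, PSBO2 and PSBQ2. The 4 higher ones numbered 2 without replicate 2 of pif4 or of mrg1 mrg2 pif4 at 22 °C, and 1 without replicate 1 of mrg1 mrg2 pif4. Over 24 alternatives the call of PSBO1 was lost in 8, of PSBO2 and LHCA1 in 5 each, of LHCB1.2 in 4 and of PSBQ2 in 1. In the triple mutant at 22 °C 4 of 22 root markers were higher and 1 lower than in mrg1 mrg2. Of 11 epidermis markers 2 were lower than in pif4. Their part was not tested.

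Summed over its 5 copies, LHCB1 took 33839 and 34160.5 CPM at 28 °C in mrg1 mrg2 pif4, 31008 and 36416 in mrg1 mrg2, 55392 and 59021 in pif4 and 42880.1 and 43752 in WT. At 22 °C it took 35721 and 34679 CPM in mrg1 mrg2 pif4, 29529.7 and 28681 in mrg1 mrg2, 50765 and 48330.4 in pif4 and 29152 and 28023 in WT. The 2 pif4 groups stood above all others at their temperature, and mrg1 mrg2 overlapped WT at 22 °C. The sum was not called different between mrg1 mrg2 and WT at 22 °C (0.026 ± 0.042, adjusted p = 0.712), and was higher in mrg1 mrg2 pif4 (0.30 ± 0.042, 1.16e-06) and in pif4 (0.79 ± 0.042, 5.27e-17). At 28 °C it was lower than WT in mrg1 mrg2 pif4 (−0.35 ± 0.042) and in mrg1 mrg2 (−0.36 ± 0.042) and higher in pif4 (0.40 ± 0.042). With warmth the sum rose by 0.60 ± 0.042 in WT, by 0.21 ± 0.042 in mrg1 mrg2 and by 0.21 ± 0.042 in pif4, and was not called in mrg1 mrg2 pif4 (−0.050 ± 0.042, 0.415).

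LHCB2, the partner of LHCB1 in the trimers, was higher than WT in all 3 mutants at both temperatures. Its 3 copies summed to 5394 and 5382 CPM at 28 °C in mrg1 mrg2 pif4, 5709 and 6157 in mrg1 mrg2, 5949 and 6239 in pif4 and 4809.7 and 4871 in WT, and WT was lowest. At 22 °C the sums were 5079 and 4993 CPM in mrg1 mrg2 pif4, 4669 and 4549.7 in mrg1 mrg2 and 5119 and 4949 in pif4, against 3193 and 3048 in WT. In mrg1 mrg2 the LHCB2 sum was higher than WT at 28 °C (0.29 ± 0.038, adjusted p = 4.91e-07) and at 22 °C (0.56 ± 0.038, 2.34e-14). The PSBO copies, summed, were higher than WT at 22 °C in mrg1 mrg2 pif4 (0.46 ± 0.037), mrg1 mrg2 (0.42 ± 0.037) and pif4 (0.32 ± 0.037), a sum that does not depend on how reads were split between them. The same held at 22 °C for the summed copies of PSAD, PSAE, PSAH, PSBQ and of LHCB4.1 with LHCB4.2, each of which was higher than WT in all 3 mutants.

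**Figure D4:**
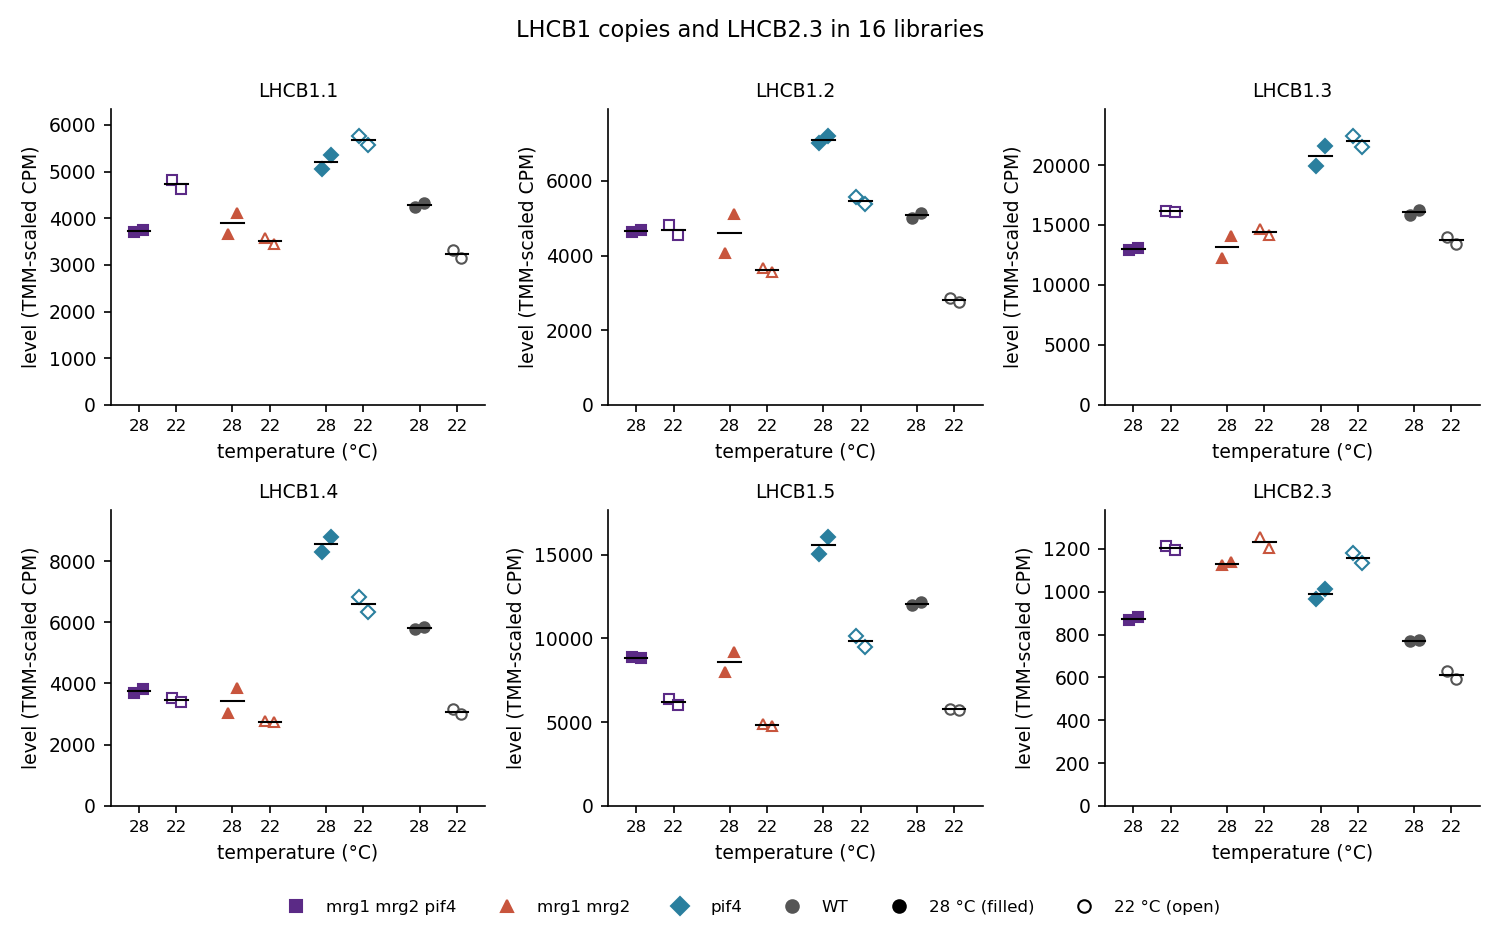
Levels of the 5 LHCB1 copies and LHCB2.3 (y axis, TMM-scaled CPM, from 0) in the 8 groups; each point is 1 library and the line is the mean of the 2, with filled points for 28 °C and open points for 22 °C. LHCB1.4 and LHCB1.5 are highest in pif4 at 28 °C. At 28 °C LHCB1.1, LHCB1.3, LHCB1.4 and LHCB1.5 are lower in both genotypes with mrg1 mrg2 than in WT. LHCB2.3 is lowest in WT at 22 °C.

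A few members ran against their class. LHCA5 (AT1G45474) had 92.9 and 88.1 CPM at 28 °C against 158 and 145 at 22 °C in mrg1 mrg2 pif4, 99.9 and 107 against 159.7 and 143 in mrg1 mrg2, 107 and 108 against 145 and 139 in pif4 and 104 and 100.2 against 134 and 123 in WT. Both warm libraries were below both others in every genotype, and the changes were −0.74 ± 0.068 in mrg1 mrg2 pif4, −0.55 ± 0.068 in mrg1 mrg2, −0.40 ± 0.068 in pif4 and −0.33 ± 0.069 in WT (adjusted p = 0.000318 in WT). LHCA6 (AT1G19150) had 89.2 and 85.2 CPM at 28 °C against 101 and 96.9 at 22 °C in WT and fell by 0.18 ± 0.068 (adjusted p = 0.0437). That call is close to the threshold and was lost in 4 other settings (adjusted p from 0.05 to 0.0866) and without any of 7 libraries (0.0502 to 0.223). LHCA6 also fell in mrg1 mrg2 pif4 (−0.20, a call lost in 5 of 24 alternatives) and mrg1 mrg2 (−0.30) and was not called in pif4 (−0.057 ± 0.067, 0.587). LHCA5 is the 1 member of the 43 with the evening element in its 250-base window. That is 2.33% of the members against 2.36% of all windows before protein-coding genes, and a link to expression was not tested.

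LHCB4.3 (AT2G40100), the CP29 form with few reads, followed neither of its sister genes. It had 22.5 and 24.1 CPM at 28 °C in mrg1 mrg2 pif4, 43.9 and 41.9 in mrg1 mrg2, 20.3 and 16.7 in pif4 and 18.8 and 20.2 in WT. At 22 °C it had 31.3 and 29.4 CPM in mrg1 mrg2 pif4, 47.0 and 45.9 in mrg1 mrg2, 15.3 and 17.6 in pif4 and 30.3 and 37.4 in WT. mrg1 mrg2 held the highest level at both temperatures, and pif4 at 22 °C was below every other group at that temperature. LHCB4.3 fell with warmth in WT (−0.80 ± 0.12, adjusted p = 9.29e-07), was lower in pif4 than in WT at 22 °C (−1.04 ± 0.12, 1.56e-08) and was higher in mrg1 mrg2 than in WT at 28 °C (1.14 ± 0.11, 1.42e-09). Its warm response was higher than in WT in mrg1 mrg2 (0.69 ± 0.15) and in pif4 (0.97 ± 0.17). LHCB7, with 104 reads in its lowest library, was not called in any of the 17 comparisons. PSBS fell with warmth in mrg1 mrg2 pif4, with 911 and 921 CPM at 28 °C against 1199 and 1176 at 22 °C (−0.37 ± 0.043), and in pif4 (−0.13, a call lost without any 1 of the 4 pif4 libraries). Against WT at 28 °C PSBR was called in pif4 alone of the 3 mutants, where it had 4050.0 and 4163 CPM against 3537 and 3619 in WT (0.20 ± 0.046), a call lost in 4 of 24 alternatives (adjusted p from 0.0719 to 0.379).

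**Figure D5:**
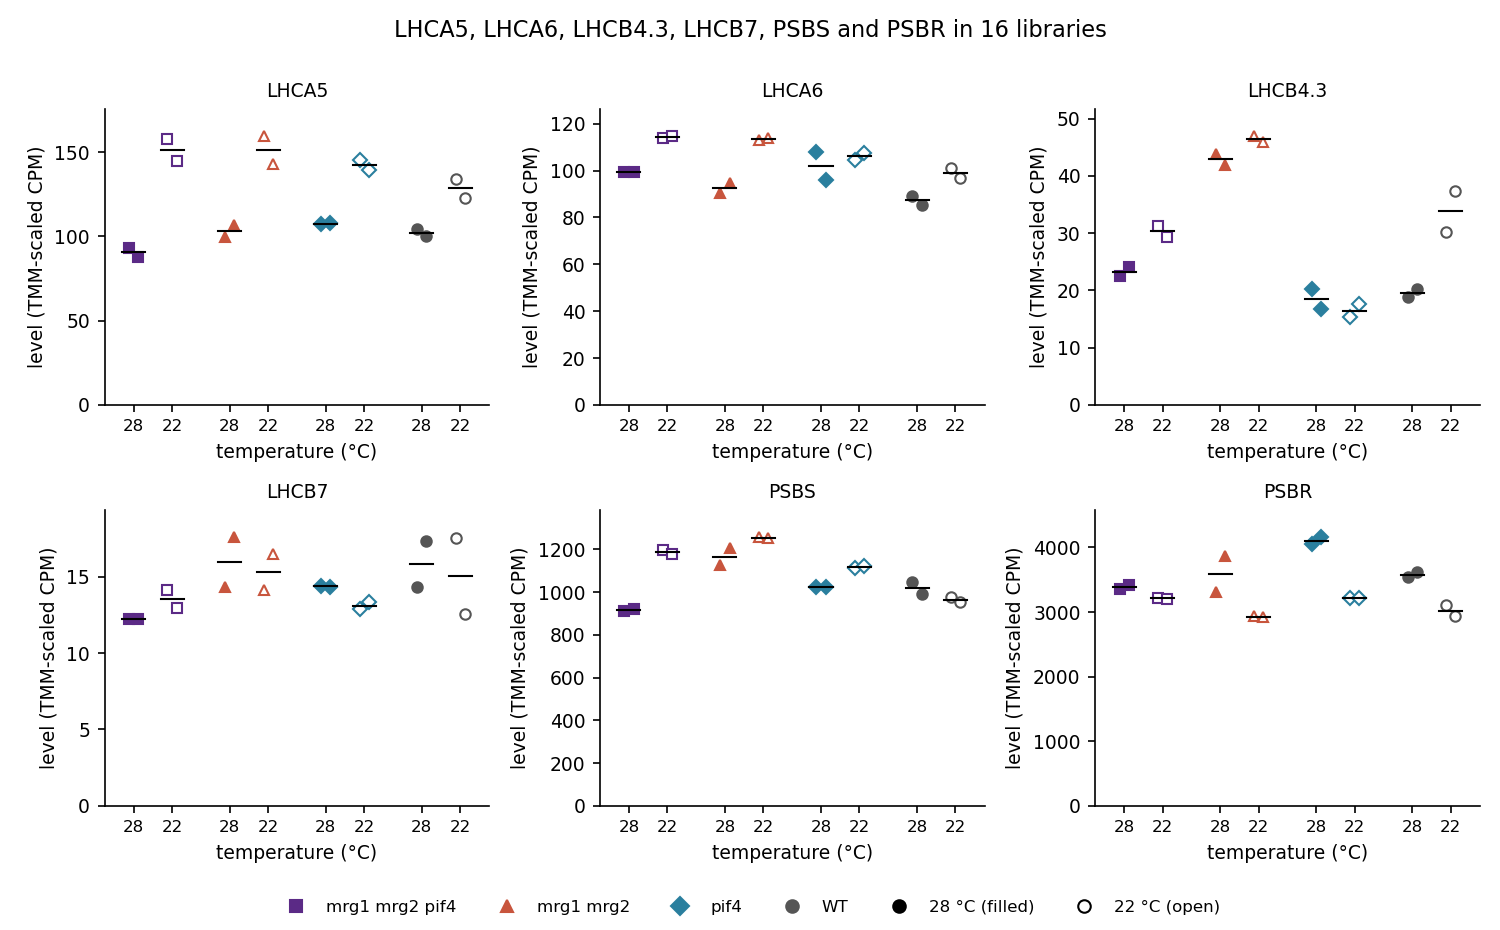
Levels of LHCA5, LHCA6, LHCB4.3, LHCB7, PSBS and PSBR (y axis, TMM-scaled CPM, from 0) in the 8 groups; each point is 1 library and the line is the mean of the 2, with filled points for 28 °C and open points for 22 °C. LHCA5 is lower at 28 °C in every genotype, and LHCB4.3 is highest in mrg1 mrg2.

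Other genes of the pathway were read from lists written by name, and their counts stand beside shares of 13.3% higher and 13.7% lower over all genes in the WT warm response, or 30% and 28% among genes with a mean of at least 100 CPM. The genes of chlorophyll synthesis, which supply the pigment of the antenna, were mostly higher in the mutants at 22 °C. Of 22 genes 20 were higher than in WT in each mutant, with medians of 0.32 in mrg1 mrg2 pif4, 0.37 in mrg1 mrg2 and 0.41 in pif4. In those comparisons 7.87%, 12.3% and 5.8% of all genes were higher, in that order. Among genes with a mean of at least 100 CPM the shares were 23.9%, 35.1% and 26.5%. In the WT warm response 12 rose and 1 fell (median 0.20), whereas in mrg1 mrg2 pif4 2 rose and 11 fell (median −0.15), where 12.9% of all genes rose and 14.3% fell. PORB, for the light-dependent reduction of protochlorophyllide, had 664 and 645 CPM at 28 °C against 350.2 and 337 at 22 °C in WT (0.93 ± 0.047, adjusted p = 2.15e-18). CHLP, which makes the phytyl tail, had 1389.6 and 1351 CPM at 28 °C against 938 and 938 at 22 °C (0.55 ± 0.041). Both genes rose in the WT libraries in which the antenna genes rose.

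Of 18 Rubisco and Calvin cycle genes 4 rose and 10 fell in the WT warm response (median −0.19), against 13.3% and 13.7% of all genes. RBCS1B, a small subunit of Rubisco, had 790.1 and 757 CPM at 28 °C against 1394 and 1325 at 22 °C and fell by 0.81 ± 0.046. TKL1, a transketolase of the cycle, fell by 0.40 ± 0.045. In mrg1 mrg2 pif4 16 of the 18 fell with warmth (median −0.56), where 14.3% of all genes fell. Of 14 electron transport and ATP synthase genes 5 rose and 2 fell in WT, against 30% and 28% among genes with a mean of at least 100 CPM, and the 5 include the ferredoxin gene FD1 (0.69 ± 0.054) and the plastocyanin gene PETE1 (0.66 ± 0.059). Of 12 genes of antenna insertion and thylakoid organisation 5 rose, among them CURT1C, which bends grana margins (0.66 ± 0.060), and STN8, a kinase of photosystem II proteins (0.46 ± 0.074).

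LHC-like stress proteins bind pigment as the antenna does but appear in excess light, and 5 of 8 fell with warmth in WT (median −0.28). ELIP2 had 2.47 and 3.46 CPM at 28 °C against 13.8 and 16.9 at 22 °C (−2.39 ± 0.22), and ELIP1 had 5.76 and 6.06 against 12.0 and 15.8. Both are near the lower end of the measured range, and neither pair of groups overlaps. Among 6 other nuclear genes of photosystem II 2 rose and 1 fell, with PSB27 at 0.24 ± 0.056 and PSB28, an assembly factor, at −0.67 ± 0.068. Plastid-encoded subunits gave no call: PSBB had 562 and 1176 CPM in WT at 28 °C against 584 and 653 at 22 °C, and PSBC 746 and 1399.9 against 798 and 789. In both genes the 2 warm libraries lay further apart than the means of the groups. The plastid share of a library's counts ran from 1.68% to 3.21% and was higher in replicate 2 in 7 of 8 groups. The missing calls therefore do not show that plastid-encoded genes were unchanged.

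Of 21 regulators of photosynthesis genes 6 rose and 7 fell in the WT warm response (median −0.025), where 13.3% of all genes and 30% of those with a mean of at least 100 CPM rose, and 13.7% and 28% fell. LHY, a morning clock factor that binds antenna promoters, had 34.5 and 35.9 CPM at 28 °C against 177 and 176 at 22 °C in mrg1 mrg2 pif4 and 52.3 and 51.8 against 193 and 189 in WT. It fell in mrg1 mrg2 pif4 (−2.32 ± 0.070) and in WT (−1.88 ± 0.069). LHY was lower at 28 °C in the other genotypes too, with 50.8 and 52.6 CPM against 164 and 164 at 22 °C in mrg1 mrg2. In pif4 it had 53.0 and 53.8 CPM at 28 °C against 172 and 197 at 22 °C. PIF4 transcript rose with warmth by 1.52 ± 0.093 in WT. GLK1, an activator of antenna genes, was higher in mrg1 mrg2 than in WT at 22 °C (0.47 ± 0.072) and was not called in mrg1 mrg2 pif4 (0.027 ± 0.072, adjusted p = 0.866) or in pif4 (−0.20 ± 0.073, 0.0688). It was chosen after its values were seen.

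Markers of other tissue stood as follows beside the members. None of the 23 root markers was at 0 in both libraries of a group. Of the 22 tested, 10 fell and 1 rose in the WT warm response (median −0.47), with PRP3, a root hair wall protein, at −1.25 ± 0.10 and IRT1, the root iron transporter, at −4.36 ± 0.22. IRT1 was also lower at 28 °C in the mutants, with means of 1.47 CPM against 34.5 at 22 °C in mrg1 mrg2 pif4. In mrg1 mrg2 the means were 3.21 against 38.7 CPM and in pif4 2.83 against 34.4, beside 1.44 against 30.7 in WT. At 22 °C the mean of IRT1 was lowest in WT (30.7 CPM), where the summed root markers were highest. Of the 11 shoot epidermis markers 7 rose in WT, among them the wax genes CER1 (0.94 ± 0.14) and CUT1 (0.37 ± 0.050). Seed storage and oleosin genes summed to 72.5 and 74.6 CPM in pif4 at 28 °C and to under 10 CPM in every other group, and the storage protein genes CRU2 and SESA1 were at 0 in both pif4 libraries at 28 °C. OLEO2 and OLEO4 were not called in WT. The part of these tissues in the members' values was not tested.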

How the data were processed

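RNA-seq was measured in 16 libraries of Arabidopsis seedlings, 2 for each of 4 genotypes at 28 °C or 22 °C. The deposited table holds whole-number read counts per gene. Libraries were made with a KAPA stranded mRNA kit per the labels, and the tools listed in the submitters' processing notes are cutadapt, HISAT2, SAMtools and featureCounts, with TAIR10 as the build. No source used here gives versions, options or the strand setting.

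From these counts, genes were kept with filterByExpr of edgeR (minimum count 10, minimum total 15), which left 20075 of 33602 genes. Groups were compared with edgeR 4.0.16 in R 4.3.3 (limma 3.58.1), with TMM scaling, 1 quasi-likelihood fit over all 8 groups with 8 residual degrees of freedom, and Benjamini-Hochberg adjustment over all genes tested, with a threshold of 0.05. The script was tested on simulated data. The floor is 3 counts per library and covers counting error only.

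RPKM used exon lengths of RefSeq TAIR10.1, which matched 43 of 43 members by gene ID. Sequences come from the same source, and 250 bases before each gene start were searched for motifs. That build carries another name than the files' TAIR10, so it was used for names, lengths and sequence.

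Members and lists were chosen with earlier results of these data known. Per-library values are given, in each class, for the 2 members with the smallest p in the WT warm response, in the comparisons with WT at 22 °C and in the interactions, for members called against most of their class, and for up to 2 genes of each list. Others with values were chosen after their values were seen.

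Alternatives were DESeq2 1.42.0, RLE factors, library totals, no filter, the ribosomal RNA gene and organelle genes removed, the groups compared alone, each library left out, a replicate block and, chosen after seeing the data, scaling without the members.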

Additional observations from a re-analysis of the deposited data

Results flagged for a closer look

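The interaction test found warm responses that differed from WT. In mrg1 mrg2 pif4 the response was lower than in WT for 38 members, in mrg1 mrg2 for 29 and in pif4 for 23. Over all genes the shares lower were 3.47%, 2.44% and 1.76%. It was higher for 1 member (LHCB4.3) in mrg1 mrg2 and for 1 (LHCB4.3) in pif4, against 2.37% and 2.34% of all genes. With library totals the lower members numbered 28, 5 and 11. With single libraries left out they numbered 36 to 40, 14 to 33 and 14 to 28. With warmth 3 members fell in the triple mutant and rose in WT, LHCB2.3, LHCB1.1 and LHCB1.3, and the log2 differences of LHCB2.3 and LHCB1.1 were −0.80 and −0.75. Among further antenna genes the difference was −0.87 (LHCB1.2), −0.56 (LHCA1), −0.54 (LHCA4), −0.53 (LHCB5) and −0.50 (LHCB6). Among subunit genes it was −0.54 (PSAG), −0.42 (PSAF), −0.46 (PSBP1) and −0.43 (PSBO1). All these values share the 2 WT libraries at 22 °C, in which summed root markers were highest, and in the triple mutant interaction 5 of 22 root markers had a higher and 4 of 11 epidermis markers a lower response. The part of tissue in these results was not tested.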

How the results depend on the processing

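With single libraries left out, 36 to 38 members rose and 2 to 3 fell in the WT warm response, and 36 to 40 were lower in the triple mutant interaction. Other counts moved by over 1.5 times, and the causes were not tested. With library totals only, members fell in mrg1 mrg2 with warmth in 2 cases, not 4. At 28 °C against WT 8 were then higher in mrg1 mrg2 pif4 and 3 lower, and 12 were higher in pif4. The triple mutant at 28 °C then had 3 lower against mrg1 mrg2, and 11 lower and 1 higher against pif4. Interactions then had 5 lower in mrg1 mrg2 and 11 in pif4. With only the groups compared, 11 members fell with warmth in mrg1 mrg2 pif4 and 2 in mrg1 mrg2. Against WT at 28 °C 7 were then higher and 11 lower in the triple mutant. Against mrg1 mrg2 6 were lower at 28 °C and 2 at 22 °C. Without the ribosomal RNA gene and organelle genes, 7 were higher than WT at 28 °C and 2 lower than mrg1 mrg2 at 22 °C in the triple mutant. DESeq2 called 1 lower in mrg1 mrg2 than in WT at 22 °C.

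With each library left out in turn, members that fell with warmth numbered 2 to 5 in mrg1 mrg2 and 2 to 5 in pif4. Against WT, mrg1 mrg2 had 1 to 2 lower at 22 °C and 7 to 18 higher at 28 °C, and mrg1 mrg2 pif4 had 2 to 7 higher at 28 °C. Against mrg1 mrg2, the triple mutant had 10 to 22 higher and 1 to 2 lower at 22 °C, and 0 to 3 higher and 3 to 19 lower at 28 °C. Against pif4 it had 1 to 4 higher at 22 °C and 0 to 1 higher at 28 °C. Interactions had 0 to 1 higher and 14 to 33 lower in mrg1 mrg2, and 14 to 28 lower in pif4. For counts of lower members in mrg1 mrg2 against WT at 22 °C, the count was 1 without WT replicate 1 or either mrg1 mrg2 replicate at 22 °C. Against mrg1 mrg2 at 22 °C, 2 were lower in the triple mutant without either mrg1 mrg2 replicate at 28 °C, and against pif4 at 28 °C 1 was higher without pif4 replicate 1 at 28 °C. The higher member of the mrg1 mrg2 interaction was lost without WT replicate 2 at 22 °C. The LHCB1 sum, not called between mrg1 mrg2 and WT at 22 °C, changed sign with library totals (−0.015) and ran from −0.0038 to 0.0589 with libraries left out.

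Libraries that share a replicate number were not taken as pairs: the correlation of their deviations was over 0.1 in 0 of 28 pairs of groups (−0.0098 to 0.0685), though above 0 in 26, and the ribosomal RNA gene's share was higher in replicate 2 in 8 of 8 groups and the plastid share in 7. With the replicate block the counts changed by less than 1.5 times: 37 members rose and 3 fell in WT with warmth, and 39 had a lower response in the triple mutant. Scaling without the members, which hold 7.98% to 13.9% of a library's counts, moved no count of members by over 1.5 times. A gene that missed the threshold was not shown to be alike between groups at this depth and with 2 libraries a group.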
